A study of Patiria miniata with 18 samples.

Results

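Solute carriers that move sugars, monocarboxylates, fatty acids and organic ions were followed through regeneration of bisected larvae of the bat star Patiria miniata, a sea star. A locus was included when the gene name given to it by the authors belongs to family Slc2, Slc5, Slc13, Slc16, Slc22, Slc27, Slc37, Slc45 or Slc46. The rule used names only, and it found 100 of the 31798 loci that passed the filter on low counts, out of 80165 loci counted. The 100 loci carry 34 gene names. They comprise 26 Slc16, 24 Slc5, 22 Slc22, 10 Slc2, 8 Slc27, 6 Slc46, 2 Slc13 and 2 Slc37 loci, and no locus with an Slc45 name was found.

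Libraries were made from anterior fragments, posterior fragments and uncut control larvae, with 2 replicates of each at each time point. The time points were 3 h post bisection (3 hpb, labelled 0 dpb), 3 days (3 dpb) and 6 days (6 dpb). Each library is a pool of about 300 siblings of the same culture, kept at 16 °C and given algae, and the labels name no allele or agent. Larvae were 7 days old when a scalpel cut divided them at the foregut. An anterior fragment therefore starts without the gut behind the cut, a posterior fragment without the body in front of it, and each library averages over all cell types of its pool.

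The families differ in how they carry their cargo. In mammals, most Slc2 proteins are passive carriers of sugars such as glucose and fructose. By contrast, Slc5 and Slc13 proteins couple uptake of sugars, inositol, choline, lactate or dicarboxylates to the sodium gradient. Slc16 proteins are the monocarboxylate carriers and their relatives, Slc22 proteins carry organic cations, anions and carnitine, and Slc27 proteins take up fatty acids and join them to coenzyme A. Slc37 proteins exchange sugar phosphates and Slc46 includes the folate carrier of the gut. Many of these proteins are known from absorptive and excretory epithelia of vertebrates, and the roles given below are those known in mammals, since no function of the sea star loci was measured.

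Each library held between 15868104 and 36152675 counts on loci (median 20631998). Values are counts per 1000000 (CPM) after scaling by TMM factors between 0.673 and 1.23. Fold changes are log2 values from 1 edgeR fit of all 18 libraries, given with the SE. Only the comparison of controls between times came from a second fit, without a term for replicate (replicate block). A locus was called when its edgeR quasi-likelihood p, adjusted by Benjamini-Hochberg over the 31798 loci, was under 0.05. The labels call the replicates biological and do not say whether they had separate parents, so p-values describe these pools only. In the fit of all 18 libraries they measure the spread left after removing the replicate difference shared within each time point. The fitted spread between replicates (common dispersion) was 0.0475 with this replicate block and 0.341 without it. Of the 100 loci, 89 share their gene name with another locus, 18 share a gene model with another of the 100 and 11 overlap the exons of a different locus. Reads of near-identical copies and of overlapping loci can be split between them, so the loci are not 100 separate genes.

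In intact larvae the transporters covered a wide range of levels. Per length, their mean over the 6 control libraries ran between 0.484 and 34.3 RPKM (CPM per 1000 bases of exon), with a median of 4.11, against 3.55 for all tested loci. The highest was an Slc27a1 locus (XLOC_029803, a fatty acid carrier in mammals) at 34.3 ± 7.51 RPKM (SD, n = 6), followed by Slc2a1 (XLOC_060391, the basal glucose carrier) at 32.4 ± 7.90 RPKM. These neighbours in the order do not differ beyond their spread. The highest locus of the other families by mean level over all 18 libraries had, in controls, 22.0 ± 11.0 RPKM for Slc16a4 (XLOC_031498), 18.1 ± 5.98 RPKM for Slc5a12 (XLOC_009438, a sodium-coupled lactate carrier) and 13.4 ± 5.77 RPKM for Slc13a2 (XLOC_069609, a dicarboxylate carrier). Those of Slc22, Slc37 and Slc46 stood at 10.1 ± 5.39 RPKM for Slc22a3 (XLOC_026297, an organic cation carrier), 8.09 ± 2.27 RPKM for Slc37a2 (XLOC_013428) and 7.94 ± 1.93 RPKM for Slc46a1L (XLOC_042525). These levels overlap within their spread. XLOC_026297 has only 363 bases of exon, and XLOC_026298 of the same gene model (828 bases) had 4.73 ± 2.45 RPKM.

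Between 6 dpb and 0 dpb, uncut controls gave no called transporter (edgeR). At an unadjusted p under 0.05 there were 3, and 0 by DESeq2, with 0.00629% of all loci called. The edgeR fit used here had no replicate block. Its fitted spread between replicates (common dispersion) was 0.341, against 0.0475 in the main fit. The absence of calls is therefore weaker evidence of no change than in the fragment comparisons.

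The first comparison asked which transporters differ between anterior fragments and intact larvae. At 3 hpb, 34 of the 100 loci were lower and 1 was higher, where 14.5% of all loci were called lower, 12.5% higher and 26.9% either way. The median log2 fold change was -0.73 for the transporters and -0.01 for all loci. At 3 dpb, 20 were lower and 0 higher, where 3.61% of all loci were called lower, 0.321% higher and 3.93% either way, and the medians were -0.28 and 0.02. At 6 dpb, 20 were again lower and 0 higher, where 3.36% were called lower, 0.393% higher and 3.75% either way, with medians of -0.25 and 0.02. Beside the counts of 0 higher, an unadjusted p under 0.05 gave 2 higher at 3 dpb and 4 at 6 dpb, and DESeq2 called 0 and 2. With 1 replicate block shared over all time points the calls in either direction were 19, 13 and 15 in time order, and without replicate 2 they were 20, 14 and 23. Without replicate 1 they were 36, 9 and 13.

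**Figure D1:**
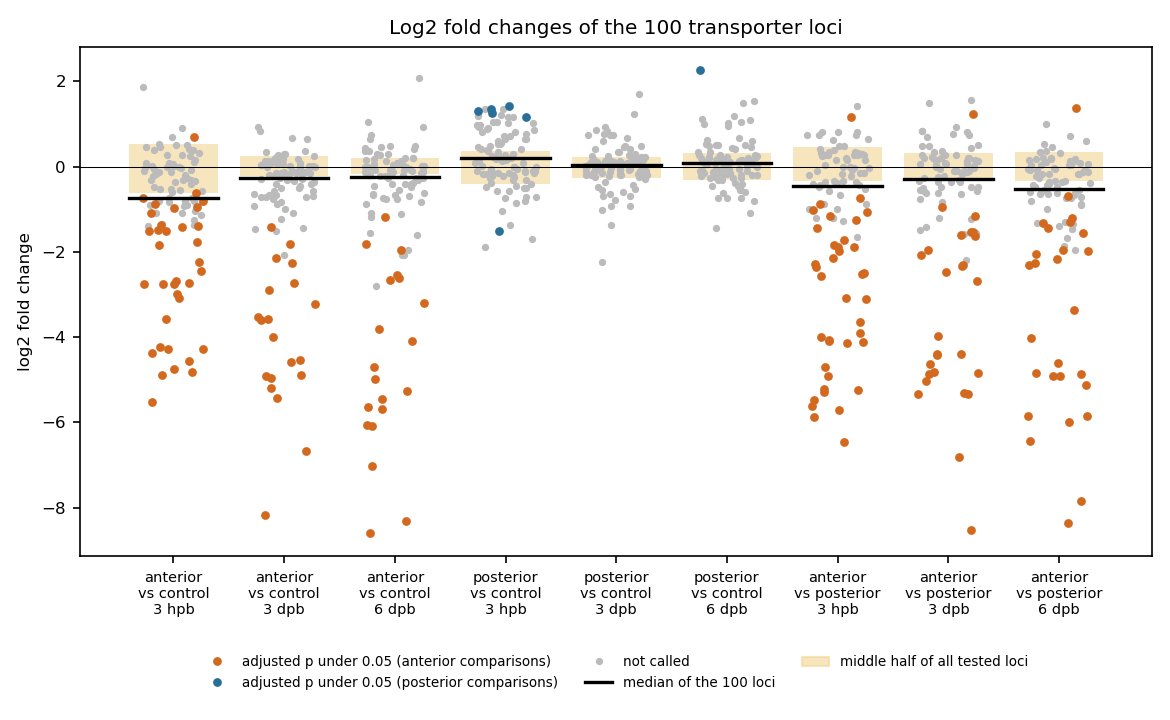
Log2 fold change (y axis) of each of the 100 transporter loci in the 9 comparisons (x axis), with coloured points for loci at an adjusted p under 0.05, a black line at the median of the 100 and a shaded band over the interquartile range of all tested loci. In the anterior comparisons the called loci lie mostly below the band, down to -8.60, where a library has few or no counts and the fitted value depends on the prior count.

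A set of 19 loci was lower in anterior fragments at all 3 times. The same can hold for at most 3.36% of all loci, the share called lower at 6 dpb. The set comprises 7 Slc5, 6 Slc22, 3 Slc27, 1 Slc2, 1 Slc13 and 1 Slc16 loci, on 16 scaffolds and from 17 gene models. Together these loci held 30.9 to 47.9 CPM in anterior fragments at 3 hpb, 25.9 to 31.8 CPM at 3 dpb and 21.3 to 23.1 CPM at 6 dpb, against 253 to 352, 217 to 340 and 197 to 264 CPM in controls. The groups did not overlap at any time. Their median log2 fold changes were -3.57, -3.99 and -4.98 in time order, and with the loci that had no count in anterior fragments set to their bound (0, 1 and 2 loci) they were -3.57, -3.61 and -4.10. The set was picked from these comparisons, so the medians describe it and test nothing. A further 13 loci were called lower at 3 hpb alone, and no locus was called lower at a later time without being called at 3 hpb. The set comprised 12 loci with 1 replicate block shared over all time points, 12 with a fit of each time point alone, 9 without replicate 1 and 12 without replicate 2, all of them among the 19.

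Many markers of the gut moved with this set. Among all loci, 14.5%, 3.61% and 3.36% were called lower in anterior fragments in time order and 12.5%, 0.321% and 0.393% higher. Of 37 loci named as digestive enzymes (amylases, carboxypeptidases, lipases and the like), 23, 19 and 20 were lower in anterior fragments in time order and 0 were higher. Their sum was 340 to 660 CPM in the 6 anterior libraries, against 1440 to 2420 CPM in the 6 controls. The enzyme locus with the highest mean, Amy_9 (XLOC_071566), had log2 fold changes of 0.13, 0.24 and 0.35 in anterior fragments and was not called, while the next, Amy2 (XLOC_011594), fell by 4.00, 4.92 and 5.80. Of 6 loci for gut regulators, 5, 4 and 4 were lower, and their sum was 175 to 316 CPM, against 387 to 485 CPM in controls. The regulator with the highest mean, FoxA (XLOC_006033), had log2 fold changes of -0.98, -0.37 and -0.48 in anterior fragments and was called at 3 hpb alone. The next, Blimp1 (XLOC_026062), had 0.13, -1.9 and -1.86 and was not called. Cdxl, a hindgut regulator, stood at 0.532 to 3.09 CPM in anterior fragments, against 15.9 to 24.9 CPM in controls. Hnf4 stood at 0.102 to 0.921 CPM, against 2.29 to 4.96 CPM. Cdxl and Hnf4 were named after their values were seen. Of the 6, none was at 0 in every anterior library. In bulk libraries, fewer cells of a type and less RNA per cell cannot be told apart. The role of the missing gut behind the cut in the transporter values was not tested.

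**Figure D2:**
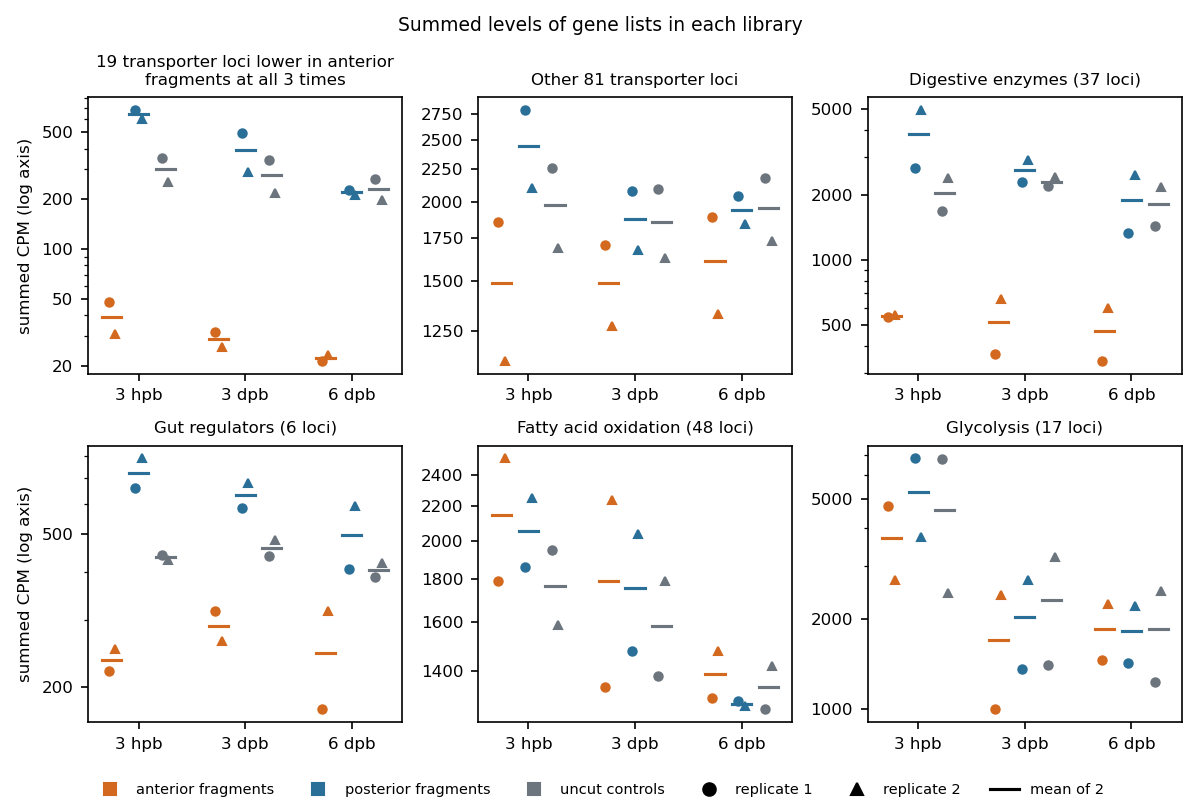
Summed CPM (log axis) in each library for the 19 transporter loci lower in anterior fragments at all 3 times, the other 81 transporter loci, and 4 lists of other genes, by time point (x axis), with circles and triangles for the 2 replicates and a line at their mean. Digestive enzymes sit at 340 to 660 CPM in anterior fragments and at 1440 to 2420 CPM in controls, and glycolysis overlaps between the groups at every time.

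Organic cation carriers of the name Slc22a3 were among the lowest in anterior fragments. Of the 15 loci with this name, 8 were lower in anterior fragments at 3 hpb and 6 at each later time. The shares of all loci called lower were 14.5%, 3.61% and 3.36% in time order. The best covered of the 6, XLOC_072056 (scaffold 8046, 7669 to 22555), had 0.716 and 1.15 CPM in anterior fragments at 3 hpb, against 20.3 and 35.4 CPM in controls. At 3 dpb it had 0.821 and 1.14 CPM, against 27.5 and 20.8 CPM, and at 6 dpb 0.387 and 0.410 CPM, against 19.5 and 11.4 CPM. No anterior library reached the lowest control at any time, with log2 fold changes of -4.88 ± 0.37, -4.59 ± 0.36 and -5.26 ± 0.39 and edgeR adjusted p of 2.56e-05, 1.49e-05 and 6.84e-06.

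For the other Slc22a3 loci lower at all 3 times a few reads set the anterior value, with at most 11 counts in a library. Not all loci of the name were so low, and XLOC_003736 had 244 and 174 counts in anterior fragments at 3 hpb. XLOC_043064 (scaffold 3461, 11142 to 19812) had 2 and 2 counts in anterior fragments at 3 hpb, against 71 and 79 in controls, a ratio of CPM 29.3-fold lower (exact 95% counting interval 11.2 to 109). At 3 dpb it had 0 and 1 counts in anterior fragments, against 95 and 60. At 6 dpb neither anterior library had a count, which makes it at least 14.1-fold lower than controls, at a floor of 3 counts per library. XLOC_004799 (scaffold 11289, 16141 to 22265) had no count in anterior fragments at 3 dpb, at least 11.6-fold lower than in controls. XLOC_055369 (scaffold 5179, 1933 to 28456) had 0 and 1 counts in anterior fragments at 6 dpb, against 204 and 31. XLOC_026297 and XLOC_026298 are parts of 1 gene model on scaffold 19269. XLOC_026297 had 1 and 1 counts in anterior fragments at 3 hpb, against 51 and 78 in controls, a ratio 50.3-fold lower (13.7 to 420). These intervals cover counting error only. Without replicate 1, 2 of these falls were no longer called at 3 dpb, that of XLOC_004799 (adjusted p = 0.189) and that of XLOC_026297 (adjusted p = 0.173), and XLOC_026297 was not called at 6 dpb either (adjusted p = 0.104, and 0.0793 with a fit of that time point alone).

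Of 8 loci for fatty acid carriers (Slc27), 4 were lower in anterior fragments at 3 hpb and 3 at each later time. The shares of all loci called lower were 14.5%, 3.61% and 3.36% in time order. All 3 Slc27a1 loci went uncalled in every comparison of a fragment with controls, and the top one had 116 and 103 CPM in anterior fragments at 3 hpb, against 155 and 134 CPM in controls. Of 4 Slc27a2 loci (a liver and kidney carrier with very-long-chain acyl-CoA synthetase activity in mammals), 3 were lower at 3 hpb and 2 at each later time. XLOC_038566 (scaffold 2897, 2987 to 14978) had 0.586 and 0.921 CPM in anterior fragments at 3 hpb, against 16.7 and 24.2 CPM in controls. It had 0.145 and 1.25 CPM at 3 dpb, against 20.7 and 26.1 CPM, and 0.176 and 0.666 CPM at 6 dpb, against 17.4 and 16.6 CPM. The groups were far apart at each time, with log2 fold changes of -4.76 ± 0.51, -5.20 ± 0.50 and -5.46 ± 0.52. XLOC_038571, which lies inside its span and shares its gene model, had no count in anterior fragments at 6 dpb and was at least 17.2-fold lower. Slc27a6 (XLOC_003926, scaffold 11052, 1623 to 15020) was lower by -2.46 ± 0.49, -2.27 ± 0.46 and -1.96 ± 0.47.

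Sodium-coupled carriers of the Slc5 family made up the largest number of the 19. In the family, 10, 8 and 7 of 24 loci were lower in anterior fragments in time order, against 14.5%, 3.61% and 3.36% of all loci. All 3 called Slc5a12 loci were lower at each time, out of 5 loci with the name. The most abundant, XLOC_009438 (scaffold 12627, 432 to 16959), overlaps the exons of another locus. It had 18.8 and 9.21 CPM in anterior fragments at 3 hpb, against 116 and 63.2 CPM in controls. It had 3.72 and 6.76 CPM at 3 dpb, against 78.0 and 49.5 CPM, and 6.08 and 7.17 CPM at 6 dpb, against 64.5 and 58.0 CPM. The log2 fold changes were -2.69 ± 0.38, -3.54 ± 0.40 and -3.21 ± 0.39, and each anterior library lay below each control. XLOC_004936 and XLOC_004937 are neighbours on scaffold 11323 with separate gene models, and ran between -2.76 and -4.10 in the same comparisons.

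Of 4 loci named Slc5a7 (a choline carrier), only XLOC_079342 (scaffold 978, 1 to 10609) was called against controls. It had 1.37 and 1.15 CPM in anterior fragments at 3 hpb, against 18.8 and 11.7 CPM in controls, 1.11 and 1.82 CPM at 3 dpb, against 18.4 and 17.6 CPM, and 0.176 and 0.512 CPM at 6 dpb, against 12.1 and 21.5 CPM. The log2 fold changes were -3.57 ± 0.38, -3.61 ± 0.36 and -5.64 ± 0.43. Of 3 Slc5a9 loci (a sodium-coupled sugar carrier) 2 were lower at all times, by -2.54 to -2.90. Slc5a11 (XLOC_013598, an inositol carrier) was lower by -1.08 ± 0.37, -2.15 ± 0.38 and -1.82 ± 0.35, and the other of the 2 loci with this name, XLOC_024138, was not called against controls (-0.26 ± 0.60, -1.52 ± 0.62 and -1.96 ± 0.56). Carriers of inositol named Slc5a3 gave 1 lower locus of 5 at 3 hpb (XLOC_064281, -1.49 ± 0.46) and none later, while the locus named Slc5a3-3 (XLOC_063361) was lower at 3 hpb (-1.78 ± 0.35) and 3 dpb (-1.42 ± 0.34). At 3 hpb 1 of 4 loci of the vitamin carrier Slc5a6 was lower (XLOC_036967, -0.97 ± 0.29), where 14.5% of all loci were called lower.

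**Figure D3:**
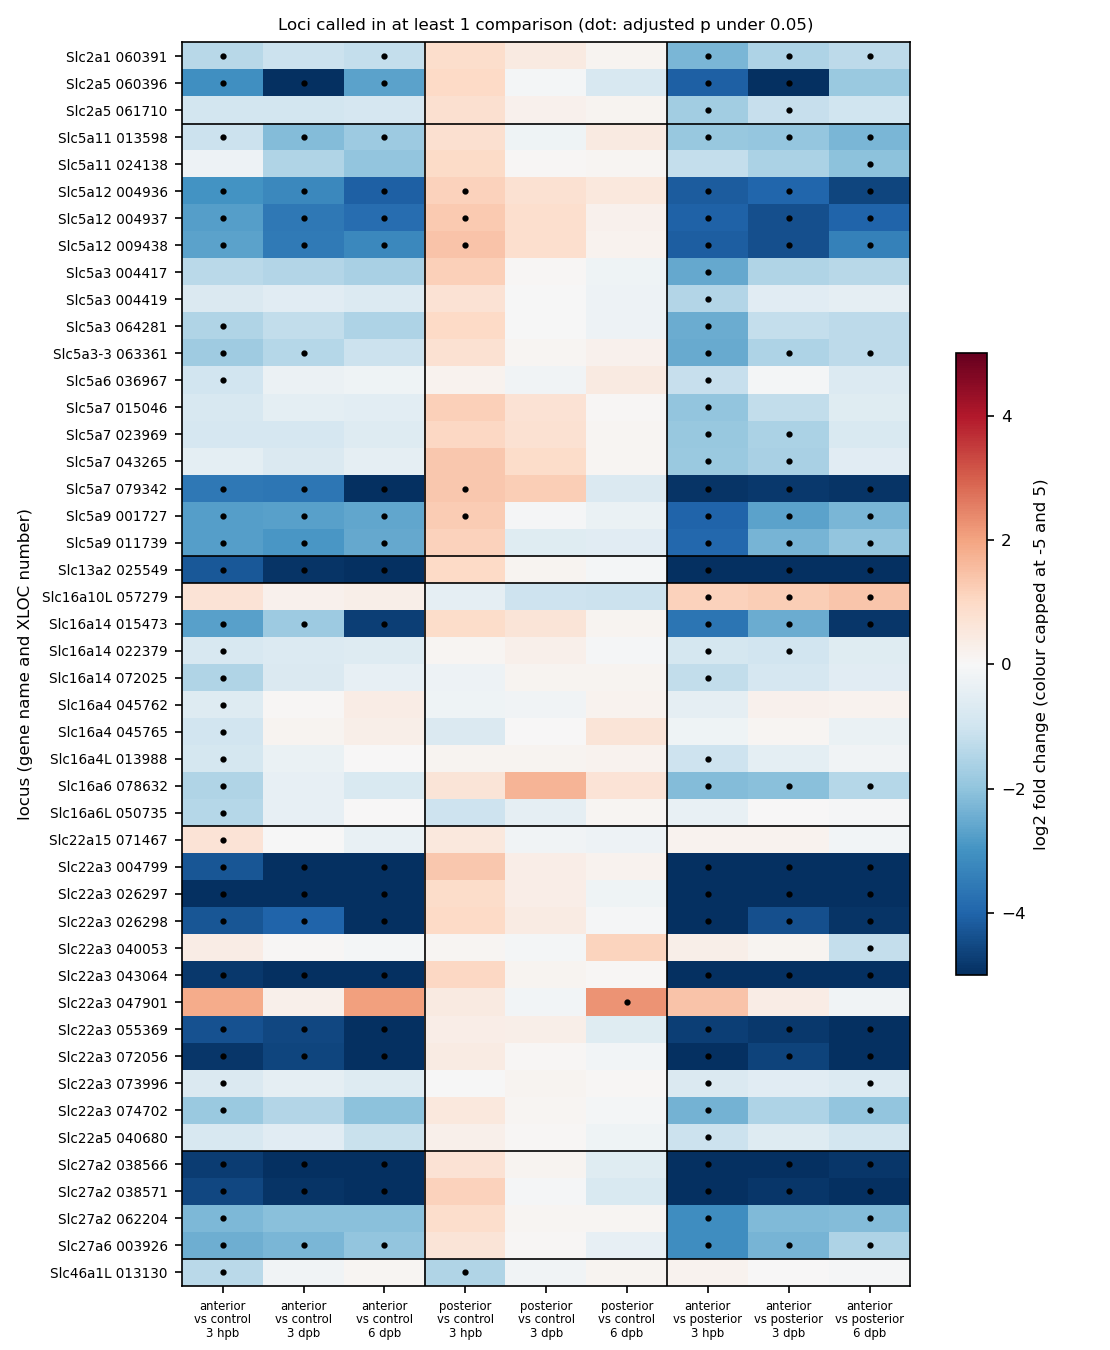
Log2 fold change (colour, capped at -5 and 5) of each locus called in at least 1 of the 9 comparisons (rows, by family) in each comparison (columns), with a dot where the adjusted p was under 0.05. The 19 rows with dots in the first 3 columns are those lower in anterior fragments at all times, and Slc16a10L is the one row with 3 dots in red.

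Among the passive sugar carriers, Slc2a1 (scaffold 5933, 4337 to 20828) had 141 and 58.2 CPM in anterior fragments at 3 hpb, against 299 and 198 CPM in controls. At 3 dpb it had 159 and 65.8 CPM, against 297 and 160 CPM, and at 6 dpb 113 and 78.3 CPM, against 229 and 203 CPM. It was lower at 3 hpb (-1.39 ± 0.28, edgeR adjusted p = 0.00484) and at 6 dpb (-1.19 ± 0.27, adjusted p = 0.0323), and at 3 dpb the value was -1.08 ± 0.27 (adjusted p = 0.0520). The call at 6 dpb was lost without replicate 1 (adjusted p = 0.165) and without replicate 2 (adjusted p = 0.374), with 1 shared replicate block (0.160), with a fit of the time point alone (0.0765) and with library size alone (0.0603). Slc2a5, a fructose carrier, was lower at all times at XLOC_060396, a locus of 410 bases (scaffold 5933, 29550 to 29959) with 1 and 0 counts in anterior fragments at 3 dpb, against 57 and 13 in controls. Its gene model is shared with XLOC_060393, which had 111 and 12.9 CPM in anterior fragments at 3 hpb, against 123 and 40.7 CPM in controls, and was not called. The call of XLOC_060396 at 3 dpb was lost without replicate 1 (adjusted p = 0.125) and with 1 shared replicate block (0.151).

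Of the 2 loci named Slc13a2, a dicarboxylate carrier, 1 was called. XLOC_025549 (scaffold 1885, 4658 to 28176) had 1.17 and 0.998 CPM in anterior fragments at 3 hpb, against 22.9 and 18.4 CPM in controls, 0.918 and 0.416 CPM at 3 dpb, against 25.0 and 14.2 CPM, and 0.211 and 0.102 CPM at 6 dpb, against 16.2 and 7.00 CPM. Its log2 fold changes were -4.24 ± 0.36, -4.91 ± 0.37 and -6.09 ± 0.44. The other locus, XLOC_069609, had 35.9 and 30.7 CPM in anterior fragments at 3 hpb, against 46.8 and 74.2 CPM in controls, and was not called at any time.

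Of 26 loci for monocarboxylate carriers and their relatives (Slc16), 8 were lower in anterior fragments at 3 hpb, 1 at 3 dpb and 1 at 6 dpb, where 14.5%, 3.61% and 3.36% of all loci were called lower, with family medians of -0.77, -0.05 and 0.01. The one called at all times, XLOC_015473, carries the joined name of Z421 and Slc16a14, so its reads cannot be assigned to the carrier alone. It had 2.02 and 4.68 CPM in anterior fragments at 3 hpb, against 32.6 and 16.1 CPM in controls. The other 7 were 2 Slc16a14, 2 Slc16a4, 1 Slc16a4L, 1 Slc16a6 (a ketone body carrier) and 1 Slc16a6L loci, between -0.63 and -1.52. No member of Slc37 was called in any comparison, and 1 of 6 Slc46 loci was (Slc46a1L, XLOC_013130), at 3 hpb.

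The single transporter called higher in anterior fragments was Slc22a15 at 3 hpb (XLOC_071467), a locus joined with Bnip2 that overlaps the exons of another locus. It had 11.9 and 23.6 CPM in anterior fragments, against 8.21 and 13.2 CPM in controls (0.69 ± 0.19, edgeR adjusted p = 0.0225). The 2 groups overlap across replicate numbers, and the call was lost without replicate 2 (adjusted p = 0.153), with library size alone (0.338), with no filter on low counts (0.0965), with a fit of each time point alone (0.141) and with 1 shared replicate block (0.330).

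Posterior fragments, which keep the gut behind the cut, were compared with the same control libraries. At 3 hpb, 5 of the 100 loci were higher and 1 was lower, where 2.43% of all loci were called higher, 1.86% lower and 4.29% either way, with medians of 0.19 for the transporters and -0.03 for all loci. All 5 were Slc5 loci: the 3 Slc5a12 loci named above, Slc5a7 XLOC_079342 and Slc5a9 XLOC_001727. The family median was 0.88. Slc5a12 XLOC_009438 had 230 and 223 CPM in posterior fragments, against 116 and 63.2 CPM in controls (1.43 ± 0.36, edgeR adjusted p = 0.0495). XLOC_004937 had 75.1 and 49.5 CPM, against 39.5 and 15.2 CPM (1.31 ± 0.26, adjusted p = 0.0244), and XLOC_004936 was higher by 1.16 ± 0.25 (adjusted p = 0.0296). Slc5a7 had 40.0 and 36.0 CPM, against 18.8 and 11.7 CPM (1.35 ± 0.31, adjusted p = 0.0365). Each posterior library of these loci lay above both controls.

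These rises were near the threshold. The calls in either direction numbered 6, against 0 with 1 shared replicate block, 0 with no block, 0 with a fit of the time point alone, 3 without replicate 1 and 0 without replicate 2, and DESeq2 called 12. Scaling by library size alone moved the median of all loci by -0.38, left 1 higher and 4 lower, and lost the calls of Slc5a12 XLOC_009438 (adjusted p = 0.0658) and Slc5a7 (0.0511), so the rises are relative to the other loci. Gut markers stood higher in the same libraries, where 2.43% of all loci were called higher and 1.86% lower. Of the 37 digestive enzyme loci, 7 were higher and 0 lower. Their sum was 2680 and 4970 CPM in posterior fragments, against 1690 and 2390 CPM in controls. Of the 6 gut regulators 1 was higher, and their sum was 659 and 790 CPM, against 442 and 429 CPM. The part of the gut markers in the transporter values was not tested.

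Side by side, the 19 loci lower in anterior fragments had median log2 fold changes in posterior fragments of 1.01 at 3 hpb, 0.15 at 3 dpb and -0.14 at 6 dpb. Both fragments were set against the same controls. The sum of the 19 was 682 and 600 CPM in posterior fragments at 3 hpb, 499 and 290 CPM at 3 dpb and 227 and 212 CPM at 6 dpb, against 352 and 253, 340 and 217, and 264 and 197 CPM in controls. The groups were apart at 3 hpb and overlapped at 3 and 6 dpb.

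Later, few transporters of posterior fragments were called. At 3 dpb there was none (edgeR), with 0.0409% of all loci called higher, 0.23% lower and 0.27% either way. At an unadjusted p under 0.05 there were 8 higher and 2 lower, and DESeq2 called 1. At 6 dpb 1 was higher and 0 lower, where 1.1% of all loci were called higher, 3.3% lower and 4.4% either way, and beside the 0 lower an unadjusted p gave 2 and DESeq2 1. The one was XLOC_047901, whose name joins Slc22a3 with Gpatch1. It had 8.99 and 11.5 CPM in posterior fragments, against 0.706 and 4.64 CPM in controls (2.26 ± 0.56, edgeR adjusted p = 0.0473). In anterior fragments at 6 dpb it had 9.32 and 7.84 CPM (2.07 ± 0.57, adjusted p = 0.0878). The posterior call was lost without replicate 1 (adjusted p = 0.234), with library size alone (0.0574), with a fit of the time point alone (0.172) and with 1 shared replicate block (0.360).

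The folate carrier relative Slc46a1L (XLOC_013130, scaffold 1378, 68603 to 74376) was lower in both fragments at 3 hpb. It had 1.56 and 2.23 CPM in anterior fragments and 1.58 and 1.74 CPM in posterior fragments, against 4.26 and 5.45 CPM in controls. The changes were -1.36 ± 0.26 (edgeR adjusted p = 0.00373) and -1.52 ± 0.26 (adjusted p = 0.0130), from shared controls, and no fragment library reached a control. At 3 dpb the same locus had 6.38 and 3.54 CPM in anterior fragments and 5.30 and 4.24 CPM in posterior fragments, against 5.99 and 4.86 CPM in controls, and the groups overlapped. The posterior call at 3 hpb was lost without replicate 2 (adjusted p = 0.145), with 1 shared replicate block (0.154) and with a fit of the time point alone (0.132).

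**Figure D4:**
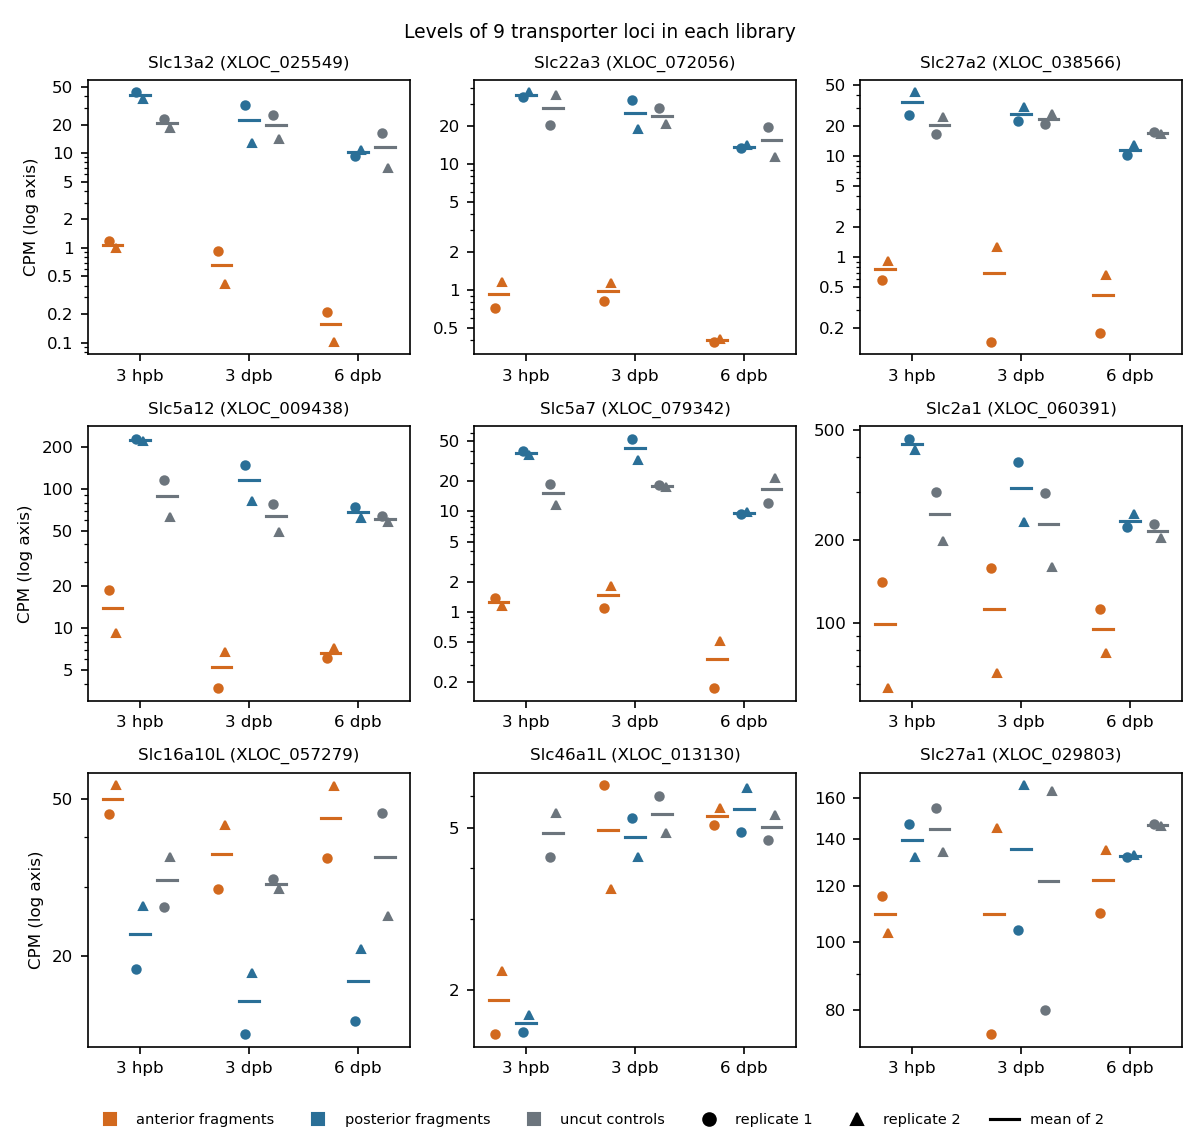
CPM (log axis) of 9 transporter loci in each of the 18 libraries by time point (x axis), with circles and triangles for the 2 replicates and a line at their mean. Slc13a2 XLOC_025549 lies at 0.102 to 1.17 CPM in anterior fragments and at 7.00 to 25.0 CPM in controls, while Slc46a1L XLOC_013130 lies below controls in both fragments at 3 hpb.

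The fragments were also compared directly, without controls. Anterior fragments had 37 loci lower and 1 higher than posterior fragments at 3 hpb, where 8.22% of all loci were called lower, 3.76% higher and 12.0% either way, with medians of -0.46 and 0.11 for the transporters and all loci. At 3 dpb 26 were lower and 1 higher, where 4.87% were called lower, 2.56% higher and 7.43% either way. At 6 dpb 26 were lower and 1 higher, where 5.68% were called lower, 7.23% higher and 12.9% either way. Here 21 loci were lower at all 3 times, which can hold for at most 4.87% of all loci, the share called lower at 3 dpb. By family at 3 hpb, 15 of 24 Slc5, 9 of 22 Slc22, 5 of 26 Slc16, 4 of 8 Slc27, 3 of 10 Slc2 and 1 of 2 Slc13 loci were lower. With no replicate block the calls in either direction numbered 19, 13 and 11 in time order, without replicate 1 they numbered 25, 12 and 27, and without replicate 2 22, 15 and 20.

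Several Slc5 loci not called against controls were called here at 3 hpb, among them the choline carrier Slc5a7 at 3 further loci and the inositol carrier Slc5a3 at 2 further loci. Slc5a7 XLOC_023969 had 51.5 and 29.3 CPM in anterior fragments, against 124 and 166 CPM in posterior fragments (-1.88 ± 0.32, edgeR adjusted p = 0.00189). Slc5a3 XLOC_004417 had 4.10 and 3.84 CPM, against 24.2 and 22.7 CPM (-2.56 ± 0.53, adjusted p = 0.00734). Both were chosen after their values were seen, and for both each anterior library lay below each posterior one. This comparison tests whether the fragments differ from each other, and says nothing of either against controls.

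One locus went the other way. Slc16a10L (XLOC_057279, scaffold 5450, 54101 to 59215), named after an aromatic amino acid carrier, had 46.0 and 54.4 CPM in anterior fragments at 3 hpb, against 18.5 and 26.8 CPM in posterior fragments. It had 29.5 and 43.0 CPM at 3 dpb, against 12.6 and 18.1 CPM, and 35.5 and 54.2 CPM at 6 dpb, against 13.6 and 20.8 CPM. Each anterior library was above each posterior one, and the differences were 1.17 ± 0.33, 1.24 ± 0.33 and 1.38 ± 0.33 (edgeR adjusted p = 0.0391, 0.0420 and 0.0164). Controls had 26.6 and 35.6 CPM at 3 hpb, 31.4 and 29.6 CPM at 3 dpb and 46.2 and 25.3 CPM at 6 dpb. Anterior fragments lay above both controls at 3 hpb and overlapped them later, posterior fragments lay below both controls at 3 and 6 dpb and overlapped them at 3 hpb, and neither fragment was called against them. The calls at 3 hpb and 3 dpb were lost without replicate 1 (adjusted p = 0.294 and 0.397), without replicate 2 (0.179 and 0.440) and with 1 shared replicate block (0.0867 and 0.0881), and that at 3 hpb with library size alone (0.0681). The call at 6 dpb was lost with a fit of that time point alone (0.101).

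The change of each fragment's difference from controls between 3 hpb and 6 dpb was tested as an interaction. For anterior fragments no transporter was called (edgeR), where 2.32% of all loci were (0.846% up and 1.47% down), with 18 at an unadjusted p under 0.05 and 5 by DESeq2. For posterior fragments 3 rose relative to controls and 1 fell, where 2.08% of all loci were called up, 3.29% down and 5.37% either way. The same loci moved the same way in anterior fragments without being called, and whether the fragments differ in this change was not tested. In posterior fragments Slc5a7 XLOC_079342 fell by 2.08 ± 0.43 (adjusted p = 0.0259), and its anterior change was -2.07 ± 0.59 (edgeR adjusted p = 0.0799). It had 40.0 and 36.0 CPM in posterior fragments at 3 hpb and 9.36 and 9.91 CPM at 6 dpb, against 18.8 and 11.7 CPM and 12.1 and 21.5 CPM in controls, so that posterior fragments lay above controls early and below them late.

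The 3 that rose came from low values at 3 hpb. They were Slc46a1L XLOC_013130 (1.66 ± 0.34, edgeR adjusted p = 0.0250), Slc16a4 XLOC_045765 (1.37 ± 0.30, adjusted p = 0.0303) and Slc16a14 XLOC_050446 (2.90 ± 0.60, adjusted p = 0.0257). The anterior changes of these 3 were 1.45 ± 0.34, 1.25 ± 0.30 and 1.73 ± 0.58 (edgeR adjusted p = 0.0514, 0.0532 and 0.116). Slc16a4 had 6.82 and 8.95 CPM in posterior fragments at 3 hpb and 21.2 and 22.8 CPM at 6 dpb, against 9.84 and 17.1 CPM and 14.7 and 13.8 CPM in controls. Slc16a14 had 0.720 and 0.434 CPM and then 8.84 and 6.26 CPM, against 2.19 and 2.06 CPM and 3.72 and 3.70 CPM. It spans 660 bases and is 1 of 4 loci of its gene model. The others rose too without being called: XLOC_050442 (3968 bases of exon, 1.02 ± 0.53), XLOC_050444 (2.64 ± 0.75) and XLOC_050445 (1.85 ± 0.67). Slc16a4 XLOC_045765 shares its model with XLOC_045762, which gave 0.39 ± 0.30 and was not called. The rises are therefore those of the loci named and not of whole gene models. All 4 calls were lost without replicate 2, with 1 shared replicate block and with no block.

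Enzymes that use the carried substrates were counted for context. Among all loci, 14.5%, 3.61% and 3.36% were called lower in anterior fragments in time order and 12.5%, 0.321% and 0.393% higher. In posterior fragments 4.29%, 0.27% and 4.4% were called either way. Of 17 glycolysis loci, 3, 1 and 1 were lower in anterior fragments in time order and 0 higher, with medians of -0.19, -0.18 and -0.16, and 0 were called in posterior fragments. The 2 most abundant, Hk (XLOC_075448, hexokinase) and Gapd (XLOC_058872), were not called. Those lower were 2 Pgk1 loci at 3 hpb and Hk1_2 (XLOC_041644) at each time, by -3.46 ± 0.41, -3.30 ± 0.39 and -3.52 ± 0.42, and these were named after their values were seen. Of 48 fatty acid oxidation loci, 16, 6 and 0 were lower in anterior fragments and 3, 0 and 0 higher, with medians of -0.50, 0.01 and -0.02. Their most abundant, Acadvl (XLOC_062661) and Cpt1a (XLOC_015897), gave 0.59 ± 0.27 and 0.65 ± 0.28 at 3 hpb and were not called. Of 9 gluconeogenesis loci, 1 was higher and 1 lower at 3 hpb and none later. The higher one, Pck2_1 (XLOC_071759), was the most abundant (1.64 ± 0.47, edgeR adjusted p = 0.0248), and the next, Pc (XLOC_077913), gave -0.14 ± 0.24.

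Markers of the 2 body ends checked the labels. Frizz5/8 and Rx, markers of the anterior end, together had 584 to 1070 CPM in anterior fragments, against 208 to 413 CPM in controls. Posterior fragments had 24.3 and 27.1 CPM at 3 hpb and 74.1 and 46.5 CPM at 3 dpb, and both loci were called lower there. At 6 dpb posterior fragments had 321 and 180 CPM, against 413 and 239 CPM in controls, and neither locus was called. For all loci the shares called lower in posterior fragments were 1.86%, 0.23% and 3.3% in time order. Most of the sum of these 2 markers was Frizz5/8 (mean 391 CPM, against 25.4 CPM for Rx). Frizz5/8 was higher in anterior fragments than in controls at all times. In anterior fragments Rx was not called at 3 hpb (-0.15 ± 0.25, edgeR adjusted p = 0.68) and was higher at 3 dpb (1.28 ± 0.25) and 6 dpb (1.48 ± 0.25). Of 18 loci for posterior markers such as Wnt16, 11, 9 and 8 were lower in anterior fragments in time order, and 3, 0 and 0 were higher. For all loci the shares were 14.5%, 3.61% and 3.36% lower and 12.5%, 0.321% and 0.393% higher. In lists for other tissues, 3, 0 and 0 of 11 ciliary band and nerve loci were higher in anterior fragments and none lower, and of 11 mesenchyme and coelom loci 2, 0 and 0 were higher and 1, 1 and 1 lower.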

How the data were processed

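RNA of larvae and fragments was sequenced as 18 libraries, in 9 groups taken from the labels. The authors trimmed reads, aligned them with TopHat2 2.0.12 to the P. miniata v1.0 assembly, built loci with Cufflinks 2.2.1 and deposited HTSeq 0.6.1p1 counts per locus, not normalized. The strand setting is not given in the sources used here, so a locus and an antisense partner cannot be told apart. The authors' table of log2 fold changes was used only for locus names. Coordinates are those of the authors' loci. The depth, 15868104 to 36152675 counts on loci per library, and 2 replicates limit precision, and intervals and floors cover counting error only.

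Loci over 3 CPM in at least 2 libraries were tested in R 4.3.3 with edgeR 4.0.16 (TMM, quasi-likelihood F tests, Benjamini-Hochberg adjustment over all loci). The fit held the 9 groups and a replicate block within each time point, since sibling pools were prepared per time point. Same-numbered libraries deviated together within a time point (correlations of replicate differences 0.742 to 0.916). Between time points these were 0.179 to 0.675. Controls of different times were compared by groups only. SE is the log2 fold change divided by the root of F. DESeq2 1.42.0, other scalings, filters, blocks and single time points, another call rule and leaving out each replicate were alternatives. Summaries used Python 3.11.15, pandas 2.3.3, numpy 2.4.6 and matplotlib 3.10.9. The procedure was tested on simulated data.

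The members, the gene lists and the replicate block were chosen with earlier results of these data known. Named loci were the 3 largest rises and falls called against controls in each comparison, with 1 direction in both replicates, the 2 largest each way between fragments, and the highest locus per length in each family. In other lists the 2 with the highest mean CPM were named. Further loci named in the text were chosen after their values were seen. Sequences are not printed, as locus identifiers could not be paired with a reference here.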

Additional observations from a re-analysis of the deposited data

Results flagged for a closer look

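Results in which the effects of 2 groups differed were looked at again. The change of the posterior difference from controls between 3 hpb and 6 dpb passed the interaction test (edgeR adjusted p under 0.05) for 4 transporters, Slc16a14 XLOC_050446 (2.90), Slc46a1L XLOC_013130 (1.66), Slc16a4 XLOC_045765 (1.37) and Slc5a7 XLOC_079342 (-2.08). In the same order, their anterior changes were 1.73, 1.45, 1.25 and -2.07 and were not called. Anterior and posterior fragments differed from each other at 3 hpb at Slc22a3 XLOC_026297 (-6.45) and XLOC_043064 (-5.88), at 3 dpb at Slc22a3 XLOC_004799 (-8.52) and XLOC_043064 (-6.82), and at 6 dpb at Slc22a3 XLOC_043064 (-8.36) and Slc27a2 XLOC_038571 (-7.85). Neither anterior library had a count for XLOC_004799 at 3 dpb, nor for XLOC_043064 and XLOC_038571 at 6 dpb, so these fitted values are no bounds, and the loci were at least 13.8-fold, 15.3-fold and 9.47-fold lower in anterior than in posterior fragments. Slc16a10L XLOC_057279 was higher in anterior than in posterior fragments by 1.17, 1.24 and 1.38 in time order. Groups of 2 libraries are too small for a test of single outlying libraries.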

How the results depend on the processing

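The main fit has a replicate block within each time point. With 1 replicate block shared over all time points the transporters called, in either direction, were 19 and 13 for anterior fragments against controls at 3 hpb and 3 dpb, 0 for posterior fragments at 3 hpb and likewise 0 at 6 dpb, 17 and 17 between the fragments at the later times, and 0 for the posterior change over time, and 12 were lower in anterior fragments at all times. With no replicate block these were 9, 10 and 12 for anterior fragments in time order, 0 and 0 for posterior fragments at the first and last time, 19, 13 and 11 between the fragments, 0 for the posterior change and 8 at all times. The cause was not tested. A fit of each time point alone, which has fewer residual degrees of freedom, gave 12 for anterior fragments at 6 dpb, 0, 1 and 0 for posterior fragments and 12 at all times. An unadjusted p under 0.05 with more than 2-fold gave 19, 4 and 7 for posterior fragments, 16 and 20 for the anterior and posterior change, and 3 between controls. DESeq2 gave 12, 1 and 3 for posterior fragments and 5 and 9 for the changes. With no filter on low counts there were 10, 2 and 3 for posterior fragments and 8 for the posterior change. Library size alone gave 0 for posterior fragments at 6 dpb and 2 and 9 for the changes, and for anterior fragments at 3 hpb it gave 0 higher and 49 lower, with the median of all loci moved by -0.43. Leaving out 1 replicate at the times compared leaves 1 library in each group there, which is assumed to vary like the groups of the other times. The counts then ran from 20 to 36, 9 to 14 and 13 to 23 for anterior fragments in time order, 0 to 3 and 1 to 2 for posterior fragments at the first and last time, 22 to 25, 12 to 15 and 20 to 27 between the fragments, 2 to 6 and 0 to 15 for the anterior and posterior change, and 9 to 12 at all times. Of 35 named pairs of locus and comparison none changed sign under the settings run, and the 4 pairs of the posterior change were not run with single time points. No longer called were 14 with the shared block, 17 with no block, 11 without replicate 1, 12 without replicate 2, 9 of those run with single time points, 6 with library size and 1 with no filter, and 0 with DESeq2, its size factors or a minimum of 1 CPM. With 2 replicates and few counts, the anterior values of the lowest Slc22a3 and Slc27a2 loci are limited by depth.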
